A study of Mus musculus with 5 samples.

Results

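Multi-copy DNA piles up in short-read data: reads from many near-identical copies land on the few copies that the genome assembly holds. The positions described here were chosen by that pile-up. They are the CpG cytosines, counted separately on each strand, whose coverage was over 400 reads in all 5 libraries of a mouse methylation study. Of 1298241 autosomal strand entries present in all 5 tables, 862 passed the rule. Entries within 1000 bp of each other were joined, which gave 79 loci. The rule used coverage alone, so coverage is given as a description and without a test. The level of methylation and the share of bases other than C and T were not used by the rule.

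DNA methylation had been profiled in LSK cells of mouse bone marrow with ERRBS, an enhanced form of reduced representation bisulfite sequencing. LSK cells lack the surface markers of mature blood lineages, carry Sca1 and cKit, and hold the blood stem cells and early progenitors. There were 2 targeted samples, whose titles read KO and whose genotype label gives 1 intact and 1 targeted allele (+/-), and 3 wild-type samples. All were of strain C57BL/6, and each sample was 1 library. The name of the targeted gene is not reported. According to the design text it was targeted in the germ line, and an age is given only for a transcriptome experiment, not for these libraries. Nothing in the labels ties the libraries to separate animals. The p-values therefore reflect the spread among these 5 libraries alone, and that spread may be technical. The comparison asked how methylation of blood stem and progenitor cells differed between targeted and wild-type animals.

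Several kinds of DNA occur in many copies in the mouse genome. The genes for ribosomal RNA stand in tandem arrays on several chromosomes, and within a cell some copies are unmethylated and can be transcribed while others are methylated and silent. Satellite repeats and copies of retrotransposons are as a rule densely methylated in somatic cells. In ERRBS the enzyme MspI cuts at its CpG-containing site, bisulfite makes a cytosine without methylation appear as T, and a position in multi-copy DNA gives the average over all copies whose reads land there. A copy that carries T in place of the C of the reference is read as unmethylated. No annotation of the mm9 build was used, and no locus was placed in a gene. The RefSeq gene table used here belongs to another assembly, and its coordinates were not compared with the loci.

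Total coverage summed over entries was 122015958 and 151634492 reads in targeted samples 1 and 2, against 140469056, 147303723 and 128994674 reads in wild-type samples 1, 2 and 3. The autosomal median per entry was 70 and 99 reads in targeted samples, against 92, 97 and 75 reads in wild-type samples. On mitochondrial DNA, which is taken as a measure of incomplete conversion, C made up 0.198% and 0.212% of reads in targeted samples, against 0.141%, 0.185% and 0.157% in wild-type samples. The protocol names no molecular identifiers, so intervals cover counting error only.

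The 862 entries belonged to 690 CpGs on 18 of 19 autosomes, with 424 on the forward and 438 on the reverse strand. They were unevenly spread, since 472 lay on chromosome 17, 77 on chromosome 11 and 46 on chromosome 16. A single locus on chromosome 17 held 451 of them, or 52.3%. Of the 79 loci, 16 had 1 entry, 53 had 2 to 10 and 10 had more, with a median of 4. At 66 loci the entries spanned at most 51 bp, about the length of 1 read, and at 66 loci all entries were on 1 strand. At 49 loci the tables held other entries within 1000 bp, with a median coverage of 122 reads over loci, and at 30 loci they held none.

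The members took 5.89% and 5.66% of all autosomal coverage in targeted samples 1 and 2, against 5.37%, 5.43% and 4.77% in wild-type samples 1, 2 and 3. The chromosome 17 locus alone took 3.92% and 3.91% in targeted samples, against 3.62%, 3.69% and 2.98% in wild-type samples. Relative coverage is the median coverage of the entries of a locus divided by the autosomal median of the library. Over the 79 loci its mean over libraries had a median of 11.3 and reached from 5.47 to 224, with 43 loci over 10 and 12 over 50. The highest values were 224 at chr13:44965001-44965023, 204 at chr11:108873013-108873298 and 178 at chr16:11144143-11144215. They were followed by 128 at chr5:147072588-147072871, 124 at chr17:36368237-36368273, 107 at chr17:39979959-39985744, 88.3 at chr11:105928092-105928131 and 69.8 at chr12:19251030-19251076.

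The single entry with the most reads was position 98506661 on the reverse strand of chromosome 2. It had 575280 and 551298 reads in targeted samples 1 and 2, against 549776, 597224 and 868673 reads in wild-type samples 1, 2 and 3. Its methylation was high everywhere, at 97.2% and 97.0% in targeted samples, against 96.7%, 96.8% and 96.6% in wild-type samples. The targeted values lay above the wild-type values, by 0.375 points between group means, with an adjusted p of 0.115 in edgeR's quasi-likelihood test. At the other end, the lowest count among members was 402 reads, in wild-type sample 3, at position 85109051 of chromosome 1 and at 2 positions of a locus on chromosome 14. Just outside were 3 entries with 400 reads in their lowest library, of which 2 lay beside member loci of chromosome 12 and 1 beside a member locus of chromosome 7.

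Libraries differed in how strongly they piled up at the same locus. The ratio of the highest to the lowest library in relative coverage was 2.03 at the median locus, with a range of 1.26 to 3.51, and the lowest ratio was that of the chromosome 17 locus. Over all loci the median relative coverage was 15.99 and 9.96 in targeted samples 1 and 2, against 9.45, 10.1 and 11.2 in wild-type samples 1, 2 and 3. Targeted sample 1 was the highest of the 5 at 41 of the 79 loci, and wild-type sample 3 was the highest at 30 and the lowest at 32. Over single entries, most of which lie in the chromosome 17 locus, the median was 68.4 and 67.8 in targeted samples, against 56.5, 59.1 and 61.3 in wild-type samples.

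**Figure D1:**
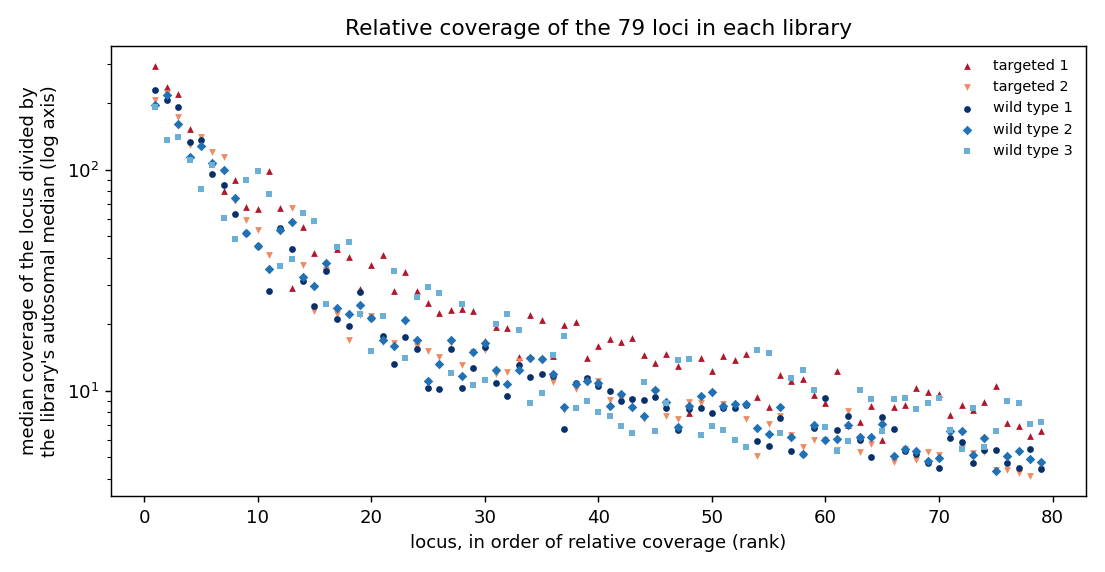
Relative coverage of each locus (vertical, log axis: median coverage of the locus divided by the autosomal median of the library) against the rank of the locus (horizontal), with 1 point per library. The mean over libraries falls from 224 at the first locus to 5.47 at the last, and the libraries differ by a factor of 2.03 at the median locus.

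The level of methylation, given as the percent of C among reads with C or T, sorted the loci into 4 classes. By the mean of the 5 libraries, 4 loci lay below 10%, 17 between 10 and 40%, 22 between 40 and 80%, and 36 above 80%. The 17 loci of 10 to 40% held 591 of the 862 entries and had the highest relative coverage, with a median of 61.7 against 7.03, 9.53 and 10.2 in the classes below 10%, of 40 to 80% and above 80%. Among single entries, 66.0% of members had a mean level of 10 to 40%, against 3.22% of the other 1297379 autosomal entries. The mean over members was 46.7% and 40.9% in targeted samples 1 and 2, against 37.7%, 37.1% and 38.5% in wild-type samples 1, 2 and 3. The mean over all other entries was 32.0% and 31.3% in targeted samples, against 31.2%, 31.1% and 31.1% in wild-type samples. In both sets targeted sample 1 was the highest and targeted sample 2 was next, with larger gaps among the members. Both targeted values exceeded every wild-type value at 600 of the 862 members, or 69.6%, against a background of 6.98% of all autosomal entries. The reverse order held at 27 members, or 3.13%, against a background of 3.34%. Among the 569 members of 10 to 40% both targeted values were the highest at 97.7%, against a background of 21.2% of all autosomal entries of that level. Of these 569 entries, 434 lay in the chromosome 17 locus. In the other loci both targeted values were the highest at 123 of 135, or 91.1%. Most background entries had far fewer reads than the members. The order of libraries at an entry also depends on counting error, so these shares are not compared at equal depth. Among entries of 10 to 40% with over 200 reads in every library that were no members, both targeted values were the highest at 32 of 156, or 20.5%.

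**Figure D2:**
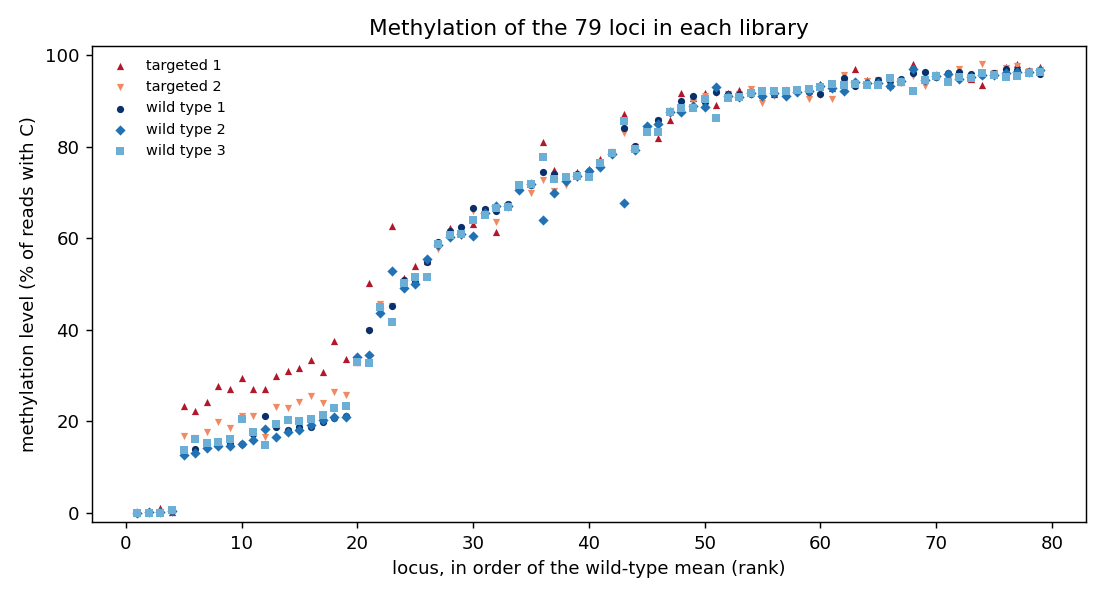
Methylation level of each of the 79 loci (vertical, percent of reads with C) in order of the wild-type mean (horizontal, rank), with 1 point per library. At 14 of the 17 loci of 10 to 40% both targeted samples lie above all wild-type samples, and at 51 of the 79 loci the groups overlap. No share over other regions with summed reads is given beside these counts.

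The chromosome 17 locus, chr17:39979959-39985744, spans 5786 bp and holds 328 CpGs, 123 of them measured on both strands. Its entries had a median coverage of 7570 and 11874 reads in targeted samples 1 and 2, against 8760, 10412 and 7881 reads in wild-type samples 1, 2 and 3. Its methylation, over all reads of its entries, was 31.6% and 24.2% in targeted samples, against 18.8%, 18.2% and 20.1% in wild-type samples. Both targeted samples were above all wild-type samples, and targeted sample 1 was far above targeted sample 2. The group means were 27.9% ± 5.21 in targeted samples (SD, n = 2) and 19.0% ± 0.941 in wild-type samples (SD, n = 3), a difference of 8.86 points. Without targeted sample 1 the difference was 5.18 points, and without targeted sample 2 it was 12.5 points. In the exact two-sided permutation test over the 5 libraries p was 0.1, which is the smallest value that 2 against 3 libraries allow. Counting error at this depth was small. A 95% Wilson interval was taken for the median number of C reads out of the median coverage, 2 medians that need not come from the same entry. It ran from 32.5% to 34.6% in targeted sample 1, and from 18.8% to 20.4% in wild-type sample 1.

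The higher level was shared by nearly the whole locus. Over its 451 entries, targeted sample 1 exceeded the wild-type mean by 12.8 points on average, with a range of 0.137 to 27.9, and was higher at 100% of them. Targeted sample 2 exceeded the wild-type mean by 5.16 points on average and was higher at 99.8% of the entries. Both targeted values exceeded every wild-type value at 446 of the 451 entries, or 98.9%, and the reverse order was met by none of them. Outside this locus, 154 of the 411 other members, or 37.5%, had both targeted values above every wild-type value, against a background of 6.98% of all autosomal entries. Neighbouring entries share reads and copies, so these counts are not independent observations.

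In windows of 500 bp along the locus, the excess of targeted sample 1 over the wild-type mean stayed between 10.4 and 13.9 points, and that of targeted sample 2 between 3.84 and 6.08 points. The wild-type mean itself varied from 13.9 to 22.3% between windows, and the order of the libraries was kept at each window for targeted 1 and targeted 2 against the wild type. Coverage along the locus varied more than methylation and in a different order of libraries. Both strands gave similar averages, while the strands of single CpGs could differ. Forward entries averaged 31.4% and 23.9% in targeted samples, against 18.4%, 18.2% and 19.8% in wild-type samples. Reverse entries averaged 33.1% and 25.4% in targeted samples, against 19.9%, 19.2% and 21.2% in wild-type samples. At the 123 CpGs measured on both strands, forward minus reverse averaged -1.28 points in targeted sample 1 (SD 10.7, range -69.7 to 43.8). In wild-type sample 1 it averaged -1.23 points (SD 9.67, range -77.7 to 22.7).

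**Figure D3:**
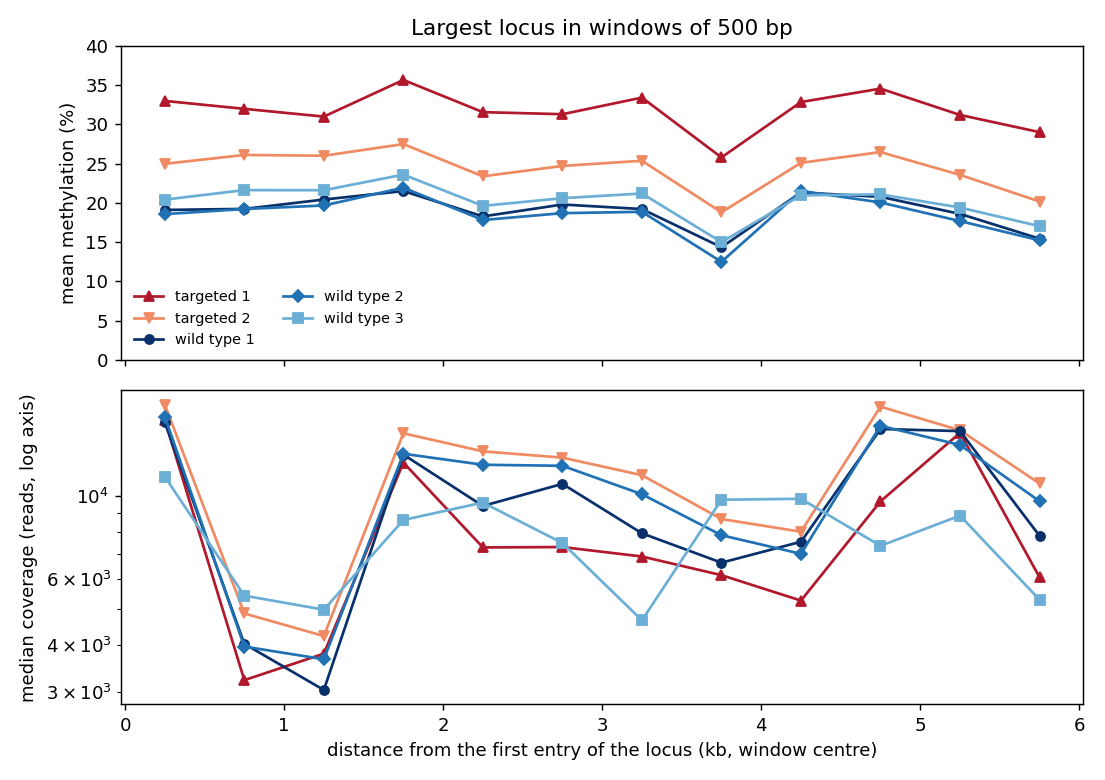
Mean methylation (upper panel, percent) and median coverage (lower panel, reads, log axis) in windows of 500 bp along the chromosome 17 locus, against the distance from its first entry (kb), with 1 line per library. Targeted 1 lies 10.4 to 13.9 points and targeted 2 lies 3.84 to 6.08 points above the wild-type mean, while the lines of coverage cross.

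A few entries of this locus departed from the rest. Position 39981712 on the reverse strand stayed near 0, at 0.379% and 0.199% in targeted samples, against 0.251%, 0.188% and 0.219% in wild-type samples, which is close to the level of mitochondrial C. Position 39981560 on the reverse strand was almost fully methylated, at 97.7% and 96.3% in targeted samples, against 94.96%, 96.3% and 95.5% in wild-type samples. The largest excess of targeted sample 1 was at position 39982223 on the reverse strand, with 56.8% and 35.3% in targeted samples, against 29.6%, 28.8% and 28.3% in wild-type samples. Only 5 entries failed to keep both targeted samples above all wild-type samples, and 3 of them were below 1% in every library.

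The tables also held 333 entries within the span of the locus that the rule did not choose, with a median coverage of 39 reads. Their mean methylation was 31.9% and 27.8% in targeted samples 1 and 2, against 20.8%, 19.4% and 24.0% in wild-type samples 1, 2 and 3. Both targeted means were again above the wild-type means, at a depth where single entries are much less certain. Of 301 such entries of 10 to 40%, both targeted samples were above all wild-type samples at 98, or 32.6%, against 21.2% of all autosomal entries of that level. Within 1000 bp of the 13 other loci of 10 to 40% at which both targeted values were the highest, unchosen entries of 10 to 40% had that order at 13 of 54, or 24.1%, near the background of 21.2%.

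Most other loci of 10 to 40%, on other chromosomes or far along the same one, also had the targeted samples above the wild-type samples. At 13 of the other 16, both targeted values exceeded every wild-type value. No share over other regions with summed reads is given beside this count, and the backgrounds below are for single entries. Over all 16 loci the medians were 29.7% and 22.04% in targeted samples 1 and 2, against 18.5%, 17.2% and 19.95% in wild-type samples 1, 2 and 3. Of their 140 entries, 124 had both targeted values above every wild-type value, against a background of 6.98% of all autosomal entries and 21.2% of those of 10 to 40%. On the scale of log2 odds, where loci of unlike level can be compared, the excess of targeted sample 1 over the wild type had a median of 0.90 over the 16 loci and ranged from -0.03 to 1.14. That of targeted sample 2 had a median of 0.35 and ranged from -0.15 to 0.50. At the chromosome 17 locus the values were 0.97 and 0.44.

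The largest difference in points between the groups was at chr11:105928092-105928131, with 37.6% and 26.4% in targeted samples, against 20.7%, 20.9% and 23.0% in wild-type samples. At chr9:3260368-3260398, of only 2 entries, methylation was 33.3% and 25.6% in targeted samples, against 18.9%, 19.3% and 20.5% in wild-type samples. At chr8:3754410-3754452 it was 27.8% and 19.9% in targeted samples, against 15.0%, 14.7% and 15.6% in wild-type samples. The 3 loci differed by 10.4, 9.88 and 8.79 points, each with targeted sample 1 apart from the rest and an exact permutation p of 0.1. They were chosen for groups that did not overlap and for a large difference. The test used those same values, so its p adds no support. Without targeted sample 1 the differences were 4.82, 5.98 and 4.83 points, and without targeted sample 2 they were 16.1, 13.8 and 12.8 points.

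The loci with the most reads per position gave the same order. At chr13:44965001-44965023, with about 20537 reads per entry in targeted sample 1, methylation was 33.6% and 25.8% in targeted samples, against 21.2%, 20.9% and 23.4% in wild-type samples. At chr11:108873013-108873298 it was 31.1% and 22.9% in targeted samples, against 18.1%, 17.6% and 20.4% in wild-type samples. At chr16:11144143-11144215 it was 24.3% and 17.7% in targeted samples, against 15.0%, 14.2% and 15.4% in wild-type samples. The groups did not overlap at any of the 3, and wild-type sample 3 was the highest wild-type sample at each.

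At chr17:36368237-36368273 methylation was 23.4% and 16.7% in targeted samples, against 13.4%, 12.8% and 13.7% in wild-type samples. At chr5:147072588-147072871 it was 29.5% and 21.1% in targeted samples, against 15.1%, 15.0% and 20.5% in wild-type samples. At the chromosome 5 locus targeted sample 2 was barely above wild-type sample 3, and the exact permutation p was 0.2.

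The remaining 3 loci of 10 to 40% overlapped between groups. At chr8:20019855-20019900, methylation was 27.0% and 16.6% in targeted samples, against 21.2%, 18.3% and 15.0% in wild-type samples, so targeted sample 2 lay inside the wild-type range. At chr6:3132937-3133327 it was 50.2% and 39.8% in targeted samples, against 40.04%, 34.5% and 32.7% in wild-type samples. At chr1:85109050-85109099 it was 33.0% and 33.5% in targeted samples, against 33.1%, 34.0% and 33.0% in wild-type samples, and this value averages 1 entry near 95% and 2 near 0.

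The excess was set beside that of other positions of the same level. Over the 569 members of 10 to 40%, means were 31.5% and 23.8% in targeted samples 1 and 2, against 18.7%, 18.1% and 19.9% in wild-type samples 1, 2 and 3. Over the 41812 other autosomal entries of that level, means were 27.0% and 21.5% in targeted samples, against 20.9%, 20.5% and 21.0% in wild-type samples. On the log2 odds scale targeted sample 1 exceeded the wild type by 0.98 in the members and by 0.49 in the other entries, and targeted sample 2 by 0.42 and by 0.06. Targeted sample 1 was thus higher in both sets, while targeted sample 2 was close to the wild type in the mean of the other autosomal entries of 10 to 40%. In the 135 members of 10 to 40% outside the chromosome 17 locus, the excess was 0.90 in targeted sample 1 and 0.33 in targeted sample 2. In 156 entries of 10 to 40% with over 200 reads in every library that were no members, the excess was 0.59 in targeted sample 1 and 0.01 in targeted sample 2.

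The difference between the chromosome 17 locus and the other entries was tested within libraries, a comparison that was not planned in advance. The groups were already apart at the locus itself, so the p of this test adds no separate support. The log2 odds of the locus minus those of the mean of the other entries of 10 to 40% were 0.32 and 0.22 in targeted samples 1 and 2, against -0.19, -0.21 and -0.08 in wild-type samples 1, 2 and 3. The group means were 0.27 ± 0.07 in targeted samples (SD, n = 2) and -0.16 ± 0.07 in wild-type samples (SD, n = 3). The groups did not overlap, and the exact two-sided permutation p was 0.1, the smallest possible.

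**Figure D4:**
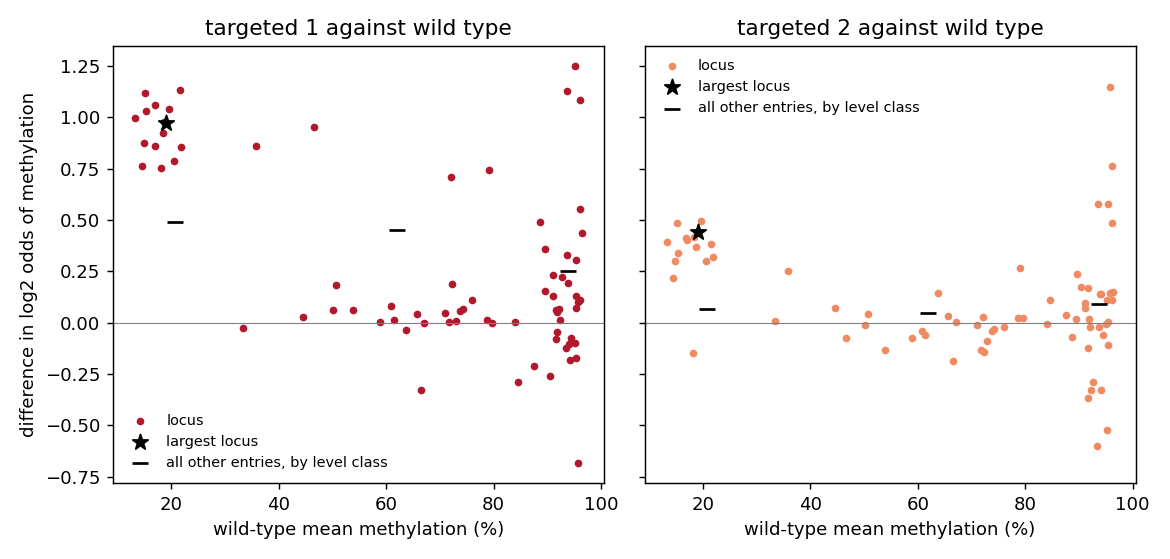
Difference in log2 odds of methylation (vertical) of targeted 1 (left panel) and targeted 2 (right panel) against the wild-type samples, against the wild-type mean level of the locus (horizontal, percent), for loci of 10% or more. The chromosome 17 locus (star) lies at 0.97 and 0.44, the other autosomal entries of 10 to 40% (dash) lie at 0.49 and 0.06, and the points at the far right, where odds rest on few unmethylated reads, are spread.

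Of the 22 loci of 40 to 80%, groups overlapped at 20, targeted samples were above at 1 and below at 1, and the median difference was 0.249 points. Of the 36 loci above 80%, groups overlapped at 26, targeted samples were above at 9 and below at 1, and the median difference was 0.234 points. These counts of loci have no background of other regions with summed reads beside them. By entry, both targeted values were the highest at 7 of the 50 members of 40 to 80%, against 19.6% of all autosomal entries of that level. The chromosome 17 locus, which is of a lower class, held 6 of these 50 members, and all 6 had that order. In the other loci 1 of 44 members of 40 to 80%, or 2.27%, had it, against the same background. Both targeted values were the highest at 14.9% of the 202 members above 80%, against 11.9% of all autosomal entries of that level. On the log2 odds scale the median excess of targeted sample 1 was 0.04 in loci of 40 to 80% and 0.08 in loci above 80%, and that of targeted sample 2 was -0.03 and 0.05.

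The 2 intermediate classes were made up of different entries. In loci of 10 to 40%, 95.9% of entries were themselves at 10 to 40%, and the median range between entries of a locus was 17.5 points. The exceptions were 13 entries below 10%, 8 at 40 to 80% and 3 above 80%, and 2 of these 17 loci held entries both below 10% and above 80%. In loci of 40 to 80%, only 30.7% of entries were in their locus's class: of 114 entries, 57 were above 80% and 20 were below 10%. In 18 of the 21 such loci with 2 or more entries, at least 1 entry below 10% stood in the same pile as entries above 80%, and the median range between entries of a locus was 89.95 points. The 20 low entries averaged 3.91% and 3.45% in targeted samples 1 and 2, against 4.29%, 4.27% and 4.42% in wild-type samples 1, 2 and 3. The 57 high entries averaged 92.9% and 91.3% in targeted samples, against 91.9%, 90.8% and 91.8% in wild-type samples.

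**Figure D5:**
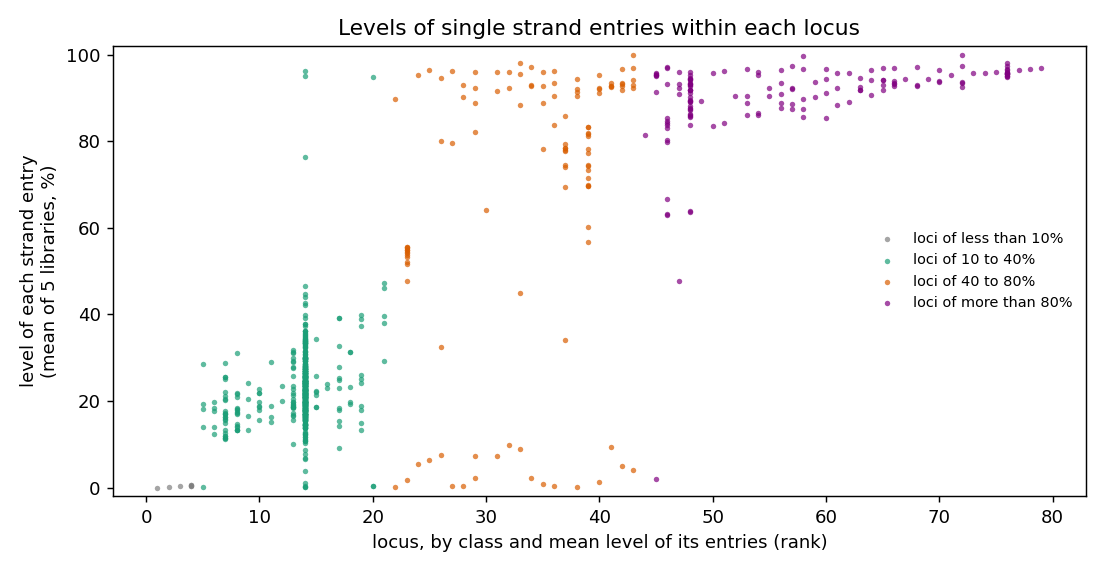
Mean level of each strand entry over the 5 libraries (vertical, percent) for each locus (horizontal, ranked by class and level), coloured by the class of the locus. Of the entries of loci of 10 to 40%, 95.9% are in the class of their locus, with a median range of 17.5 points within a locus, while 18 loci of 40 to 80% hold entries both below 10% and above 80%.

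At chr12:19251030-19251076 the first entry, on the forward strand, was at 94.7% and 91.2% in targeted samples, against 93.7%, 92.0% and 93.1% in wild-type samples. The last, 46 bp on, was at 0.445% and 0.641% in targeted samples, against 0.737%, 0.304% and 0.192% in wild-type samples, over 3655 to 7229 reads. At chr15:65888994-65889044 the first entry was at 1.17% and 0.737% in targeted samples, against 0.636%, 0.551% and 0.775% in wild-type samples. The last entry of that locus was at 96.2% and 94.5% in targeted samples, against 96.1%, 96.7% and 96.2% in wild-type samples. Both low entries stayed below 2% in every library. Whether they are unmethylated CpGs or copies that carry T cannot be told apart from these tables.

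At chr2:124178669-124178717 the 5 entries took graded levels. In targeted sample 1 they were 98.5, 95.7, 43.6, 88.1 and 9.45%, and in wild-type sample 1 they were 98.3, 95.9, 44.6, 89.2 and 9.48%. The order of levels along the pile was thus the same in both, and the locus as a whole stood at 67.1% and 67.2% in targeted samples, against 67.5%, 67.1% and 66.8% in wild-type samples. At chr16:84386927-84386973 the locus stood at 78.8% and 78.9% in targeted samples, against 78.9%, 78.4% and 78.7% in wild-type samples.

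At 2 loci above 40% with many entries, most entries shared an intermediate level. At chr13:120277221-120277270, with 13 entries, methylation was 62.8% and 45.3% in targeted samples, against 45.2%, 52.9% and 41.8% in wild-type samples. At chr12:20239164-20240055, with 16 entries, it was 81.1% and 72.8% in targeted samples, against 74.6%, 64.0% and 77.6% in wild-type samples. In both the groups overlapped, and the library that stood apart differed: targeted 1 was high at the chromosome 13 locus and wild type 2 was low at the chromosome 12 locus. The chromosome 13 locus, the overlapping loci on chromosomes 1 and 6 and the chromosome 2 entry with the most reads were named after their values were seen.

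Among densely methylated loci, chr11:3093351-3093631 had 31 entries and stood at 85.9% and 87.9% in targeted samples, against 87.8%, 87.6% and 87.5% in wild-type samples, with targeted sample 1 the lowest. The 4 loci below 10% stayed low in every library, with a highest value of 1.12%.

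In the fit across all autosomal entries, the quasi-likelihood test of edgeR was applied to 887428 entries, 861 of them members, and p-values were adjusted by Benjamini and Hochberg's method. At an adjusted p below 0.05 and a difference of at least 25 points it called 71 entries, a background of 0.008%, and no member. With no minimum difference it called 75 entries, a background of 0.00845%, and 1 member. At an unadjusted p below 0.05 stood 450 members, or 52.3% of those tested, against a background of 2.68%, and 448 of them were higher in the targeted samples. Most background entries had far fewer reads, so here and below the shares are not compared at equal depth. Of the 450, 360 lay in the chromosome 17 locus. The lowest adjusted p in that locus was 0.0798 and the median was 0.872. In limma's test on log2 ratios 2 members, or 0.232%, had an unadjusted p below 0.05, against a background of 5.15%, so the members stood above the background in edgeR and below it in limma. Without targeted sample 2, 415 members, or 48.2%, passed an adjusted p below 0.05 in edgeR with no minimum difference, against a background of 0.0651%. Without targeted sample 1, 2 members, or 0.232%, did so, against a background of 0.00689%. At an unadjusted p below 0.05 stood 576 members, or 66.9%, without targeted sample 2, against a background of 5.22%, and 368, or 42.7%, without targeted sample 1, against a background of 2.71%. The counts were 297, 281 and 372 members without wild-type samples 1, 2 and 3, against backgrounds of 1.56%, 1.51% and 1.5%, and 324 with the replicate number as a block, against a background of 1.77%. In tiles of 1000 bp the same edgeR test called 5 of 93237 tiles at 10 points, a background of 0.00536%, and none of the 79 that hold a member. The lowest adjusted p of a member tile was 0.784. An unadjusted p below 0.05 was found for 2 member tiles, or 2.53%, which is below the background of 6.37% of all tiles.

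The 1 member past the adjusted p was position 129890524 on the reverse strand of chromosome 6, and it went the other way. It was at 0.197% and 0.192% in targeted samples 1 and 2, over 507 and 522 reads, and at 11.8%, 12.6% and 11.9% in wild-type samples 1, 2 and 3, over 551, 601 and 758 reads. The groups were far apart, the values within each group were nearly equal, and the adjusted p was 1.94e-06 in edgeR's quasi-likelihood test. Over the alternatives, the adjusted p reached from 7.38e-27 in the pooled chi-square test to 0.0018 in edgeR without wild-type sample 2, and the difference of -11.9 points kept its sign. At its neighbours in the same pile the groups overlapped. Position 129890516 was at 88.9% and 94.2% in targeted samples, against 89.9%, 93.0% and 91.9% in wild-type samples. Position 129890550 was at 94.7% and 97.3% in targeted samples, against 96.2%, 95.5% and 95.8% in wild-type samples. A difference between groups in the DNA of some copies and a difference in methylation cannot be told apart at this position.

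Bases other than C and T, which neither methylation nor bisulfite gives, were rare. Over members they averaged 0.0899% and 0.0885% of reads in targeted samples 1 and 2, against 0.0838%, 0.0876% and 0.0954% in wild-type samples 1, 2 and 3. The share was lower over all other autosomal entries, at 0.0226% and 0.0221% in targeted samples, against 0.0214%, 0.0226% and 0.0224% in wild-type samples. Non-members with over 200 reads in every library lay between, at 0.0360% and 0.0356% in targeted samples, against 0.0354%, 0.0369% and 0.0338% in wild-type samples. The highest shares by locus were 3.07% at the single entry chr14:70008956, 2.23% at the single entry chr9:35113019 and 1.81% at chr8:20019855-20019900. Positions where such bases exceed 10% of reads are not in the tables, so the share has an upper limit by construction.

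Loci that descend from the same repeat can share the spacing of their CpGs, which the rule did not use. Apart from the chromosome 17 locus, 43 loci had at least 4 CpGs, and 20 of them shared a run of 3 successive spacings with another, read in either direction. The most shared run, of 4, 5 and 7 bp, was found in 6 loci on 4 chromosomes, and at 562 places among 1030906 runs over all autosomal entries. These 6 loci had mean levels of 78.8 to 95.3%. A run of 14, 4 and 21 bp was shared by 3 loci on chromosomes 10, 14 and 5 and stood at 101 places. A run of 7, 3 and 37 bp was shared by 2 loci on chromosomes 14 and 4 and stood at 28 places. Shared spacing between loci of 10 to 40% was limited to runs of 2 to 10 bp, which occur at 576 or more places. No sequence of the loci was read, so shared spacing is not shown to be shared sequence.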

How the data were processed

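Per the file headers, a line of each deposited table gives 1 cytosine of a CpG, its strand, its coverage and the share of C and of T. Coverage is a whole-number count of reads that the authors left without normalization, with a lowest value of 10. The percent values of C and T were made by the authors from those reads, and together they never fall below 90% in the deposited tables. The submitters' processing notes name Bismark, with mm9 and NCBIM37 as the build, with no version for Bismark. Percent times coverage came within 0.01 of whole reads for 99.97% of entries, and C and T reads were recovered by rounding. Coordinates are mm9.

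Members were the autosomal strand entries over 400 reads in all 5 tables, joined into loci across gaps of at most 1000 bp. The members, lists and tests were chosen with earlier results of these data known. A locus level sums the C and the T reads of its entries. Loci were named by rule: the 8 of highest relative coverage, the 5 with most entries, the 5 of largest difference whose groups did not overlap, the 6 of highest coverage between 20 and 80% in every library, the 3 with most other bases, and every called entry. Others are said to have been chosen after their values were seen.

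Counts of C and T reads were tested with edgeR 4.0.16 in R 4.3.3, with a factor per library and the interaction of methylation with group, over all autosomal entries present in every table, and over 1000 bp tiles of 3 or more entries. Entries without any C or any T read in all libraries could not be fitted. No sample was dropped or imputed. Tests of single loci were exact permutation tests in scipy 1.17.1. limma 3.58.1 was an alternative, with 1 read added to C and to T. The edgeR test was checked on simulated data first.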

Additional observations from a re-analysis of the deposited data

How the results depend on the processing

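No member was called at 25 points with limma, the pooled chi-square test, coverage minimums of 20 and 50, merged strands or membership at over 300 or 600 reads. With a minimum of 10 points, or none, 1 was called, and leaving out 1 wild-type library at a time gave 0. No member tile was called under any alternative. The 450 members with an unadjusted p below 0.05 became 2 with limma and 281 to 576 without 1 library (297 without wild type 1, 281 without wild type 2), against backgrounds of 5.15% with limma and 1.56% and 1.51% without wild type 1 and 2. The cause of the gap between edgeR and limma was not tested. The mean difference over members, 6.05 points, was 1.89 with each locus weighted equally, 2.86 without the largest locus and 3.16 to 8.94 without 1 library, where the lowest value came without targeted 1 and the highest without targeted 2. The difference at the chromosome 17 locus was 5.18 to 12.5 points without 1 library. Without the largest locus, 154 of 411 members, or 37.5%, had both targeted values above every wild-type value, against a background of 6.98% of all autosomal entries. The chromosome 2 entry with the most reads passed the adjusted p in the pooled chi-square test and in edgeR with coverage minimums of 20 and 50. It did not pass in limma, at an adjusted p of 0.991, or in edgeR with the replicate block, at 0.956. In edgeR without wild type 1, 2 or 3 the adjusted p was 0.908, 0.912 and 0.908. Without targeted 1 or targeted 2 a single targeted library is left, so for these fits only the difference of this entry is given. It was 0.286 points without targeted 1 and 0.464 points without targeted 2. The median relative coverage of members, 62.6, was 54.7 when divided by the mean coverage and 16.9 without the largest locus. The share of other bases, 0.0890%, was 0.0476% weighted by reads and 0.0814% at over 600 reads. The 79 loci became 122 at over 300 reads and 43 at over 600. Alternatives without the largest locus, and the counts at an unadjusted p, were chosen after seeing the data. The test of the chromosome 17 locus against other entries within libraries was also not planned in advance.

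Deviations of libraries that share a replicate number were hardly correlated. Pearson's r over entries, with a coverage minimum of 50, was -0.0006 for number 1 and 0.029 for number 2. With 2 targeted libraries the deviations of 1 mirror those of the other. Both values thus rest on the same contrast and cannot show whether replicate numbers share a batch. With the replicate block, 0 member entries and 0 member tiles were called, and 324 members had an unadjusted p below 0.05, against a background of 1.77%.

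With 2 against 3 libraries no exact test of a single locus can go below 0.1. The lowest count at a member was 402 reads. At the chromosome 17 locus the SD was 5.21 points between targeted samples and 0.941 between wild-type samples.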

Other observations

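The X chromosome, which the rule left out, held 91 strand entries in 9 loci with over 400 reads in every library. Their mean methylation was 68.4% and 58.1% in targeted samples 1 and 2, against 55.4%, 50.8% and 50.3% in wild-type samples 1, 2 and 3. Of these entries 58 stood at 40 to 80% and 9 at 10 to 40%. Both targeted values exceeded every wild-type value at 59 of the 91, or 64.8%, against a background of 17.9% of all entries of the X chromosome. Among the entries of 40 to 80% they did so at 50 of 58, or 86.2%, against a background of 20.8% of X entries of that level. Sex is not among the labels, and its part in these values was not tested. On mitochondrial DNA 11 entries passed the same coverage, and on the Y chromosome 0 did.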
